A study of Mus musculus with 18 samples.

Results

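F9 is a line of mouse embryonal carcinoma cells, a tumour-derived model of early embryonic cells that differentiates when it is given retinoic acid. This account concerns the interval between 6 h and 24 h of treatment: 8 of the 18 arrays of the series, chosen by their labels as the 24 h and the 6 h array of each of 4 retinoids, which makes 4 pairs. All-trans retinoic acid (ATRA), a ligand of every retinoic acid receptor (RAR), was given at 1 µM. BMS961, which the labels call specific for RARγ, was given at 0.1 µM, and BMS753 (RARα) and BMS641 (RARβ) at 1 µM each. BMS961 was therefore not at a matched dose with the other 3 ligands. The remaining retinoid arrays, at 48 h and 2 h of the same 4 treatments, were not used to define the steps and served for a separate reading, and 2 arrays of ethanol vehicle at 48 h showed how far a pair of arrays of 1 condition lay apart. Every retinoid and time had 1 array (n = 1), and the labels do not say whether arrays came from separate cultures. The p-values below measure the spread of the step among ligands, not the spread among repeated cultures, and precision is limited by how few arrays there were.

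Retinoic acid receptors bind DNA as partners of retinoid X receptors at response elements, most often direct repeats of a short half-site. Without ligand they recruit corepressors, and with ligand they recruit coactivators. In F9 cells retinoic acid is known to start a programme towards primitive endoderm, in which receptor and metabolism genes and Hox genes respond first and genes of the endoderm and its basement membrane follow. Stra8, a gene required for germ cells to begin meiosis, is known to be stimulated by retinoic acid in embryonal carcinoma and germ cells.

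The 250 bases before the start of 3 genes are printed because each is described below and holds receptor half-sites, in a repeat in Rarb and Cyp26a1 and singly in Stra8. The sequences are RefSeq's on GRCm38.p6, 5′ to 3′ on the gene's strand. Capitals mark matches of a script to the half-site AGGTCA or, inside direct repeats, also to the variant half-sites written GGGTCA, or AGTTCA, or GGTTCA, on either strand: AGGTCA alone in Stra8, and DR5, a direct repeat with 5 bases between the half-sites, in Rarb and Cyp26a1. Rarb encodes the β receptor and lies on the minus strand (chr14:16575477-16575726), Cyp26a1 encodes the enzyme that degrades retinoic acid and lies on the plus strand (chr19:37697558-37697807), and so does Stra8 (chr6:34920698-34920947).
Rarb: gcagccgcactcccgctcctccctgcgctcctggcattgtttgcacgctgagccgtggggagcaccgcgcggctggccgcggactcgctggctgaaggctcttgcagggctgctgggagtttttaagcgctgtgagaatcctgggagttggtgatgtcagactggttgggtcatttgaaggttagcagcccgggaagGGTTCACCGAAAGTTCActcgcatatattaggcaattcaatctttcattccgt
Cyp26a1: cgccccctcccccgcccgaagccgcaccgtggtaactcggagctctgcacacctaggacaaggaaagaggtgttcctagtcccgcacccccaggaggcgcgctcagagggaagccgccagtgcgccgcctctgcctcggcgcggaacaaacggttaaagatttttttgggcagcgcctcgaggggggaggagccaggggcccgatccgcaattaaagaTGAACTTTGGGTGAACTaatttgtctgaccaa
Stra8: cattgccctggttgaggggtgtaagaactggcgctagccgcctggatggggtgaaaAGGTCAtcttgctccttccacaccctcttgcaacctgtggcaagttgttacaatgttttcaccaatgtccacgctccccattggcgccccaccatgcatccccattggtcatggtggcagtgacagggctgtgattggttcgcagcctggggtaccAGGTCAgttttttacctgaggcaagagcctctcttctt
The repeat of Rarb began 53 bases before the start and that of Cyp26a1 32 bases before it, where the match was on the opposite strand. In Stra8 a half-site began 194 and another 38 bases before the start. DR5 was found in 0.0974% of 32851 promoters and the half-site AGGTCA in 16.3%. A match is a description and not a binding site.

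The deposited values were log2 levels, and the array medians over all probe sets lay between 5.32 and 5.44 on the 8 arrays. The cell label was checked against 8 markers of embryonal carcinoma cells. Pou5f1 lay between 11.94 and 12.19 on the 8 arrays, Nanog between 11.43 and 11.90 and Sox2 between 11.11 and 11.69. The least steady of the 8 markers was Lin28a, between 7.75 and 9.44. The arrays of ATRA stood apart. Over the 12146 probe sets with no listed gene, deviations from the mean of the 16 retinoid arrays correlated by 0.265 on average among ATRA arrays, by -0.016 among BMS arrays and by -0.175 across them (correlations across probe sets, which are no replicates). A constant offset of a ligand cancels in its own 24 h minus 6 h difference, but the part of this separation in the results was not tested. The vehicle pair, replicate 1 minus replicate 2, differed by a median of 0.233 (absolute log2) and by 2-fold or more in 665 genes (3.34%), more than any of the 4 steps. Replicate 1 lay above replicate 2 in 15 of the 15 genes of the ligand groups below that were higher at 24 h. It lay below replicate 2 in 3 of the 3 that were lower. The pair is thus a description and not a limit of array noise, and what set its replicates apart was not tested.

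The common step asks which genes moved the same way between 6 h and 24 h whatever the ligand. Vehicle arrays were at 48 h only. A step with a ligand, here and below, therefore cannot be told apart from a change with time in culture. Of 19938 genes tested with limma, 0 passed an adjusted p under 0.05 (0% called), while 3369 (16.9%) had an unadjusted p under 0.05, 1905 higher (9.55%) and 1464 lower (7.34%) at 24 h. All 4 ligands had the same sign in 2673 genes upwards and 2601 downwards, 26.5% of genes. The smallest adjusted p, 0.0956, was shared by 82 genes, of which 78 were higher and 4 lower at 24 h. Among them were Anxa5 (1.36 ± 0.18, log2 change ± SE), which encodes the phosphatidylserine-binding annexin A5, Cpe (1.27 ± 0.19), which encodes the prohormone-processing carboxypeptidase E, Stra8 (1.49 ± 0.23), the germ cell RNA-binding gene Rbm46 (1.16 ± 0.17), the T-box gene Tbx3 (0.96 ± 0.13) and Kdelr3 (0.93 ± 0.12), a receptor that returns proteins to the endoplasmic reticulum. Castor1, an arginine sensor upstream of mTORC1, was lower (-0.84 ± 0.12). Rbm46 and Kdelr3 were chosen after their values were seen. In the same gene set, vehicle replicate 1 lay above replicate 2 in 74 of the 78 higher genes, by a median of 0.83, and its part in the result was not tested.

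Without the ATRA pair, 121 genes passed in limma (0.607%), 101 higher (0.507%) and 20 lower (0.1%) at 24 h with BMS961, BMS753 and BMS641. In ATRA 67 of the 101 were higher and 14 of the 20 lower, and 49.5% of all genes were higher. The count depended on scaling: it was 675 with each array centred on its median and 20 after quantile normalization, and 494 with a trended, robust variance, all chosen after seeing the data. Of the 121, 15 were at least 2-fold apart. The largest rises were Stra8 (1.77 ± 0.17, adjusted p = 0.0165 in limma), Cyp11a1 (1.45 ± 0.22, adjusted p = 0.0423), the first enzyme of steroid hormone synthesis, and Anxa5 (1.35 ± 0.20, adjusted p = 0.0418). Next were Islr2, Clgn, a chaperone of the endoplasmic reticulum in germ cells, Gap43, a growth cone protein, Rbm46, Bmerb1, the adhesion receptor Adgrg6 and the chromatin organiser Satb1, between 1.24 and 1.08. Of these, Cyp11a1, Gap43, Adgrg6 and Satb1 had steps of -0.57, -0.36, -0.52 and -0.34 with ATRA. The largest falls were Trh (-1.67 ± 0.28, adjusted p = 0.0479), which encodes thyrotropin-releasing hormone, the kinase gene Pim2 (-1.20 ± 0.11, adjusted p = 0.0165), the semaphorin gene Sema6a (-0.86 ± 0.09) and Castor1 (-0.84 ± 0.13). Vehicle replicate 1 was above replicate 2 in 90 of the 101 higher genes and below it in 11 of the 20 lower ones.

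With 1 array for each time, single ligands are described by size: a gene stepped where its 24 h array was at least 2-fold, 1 log2 unit, from its 6 h array. ATRA had 235 genes stepping up (1.18%) and 147 down (0.737%). BMS961 had 157 up (0.787%) and 38 down (0.191%), BMS753 38 up (0.191%) and 12 down (0.0602%), and BMS641 7 up (0.0351%) and 4 down (0.0201%). The order of the ligands by these counts was thus ATRA, BMS961, BMS753, BMS641, with BMS961 at the lower dose. The median absolute step did not follow that order: it was 0.153, 0.157, 0.117 and 0.157 in the same sequence. In the neighbouring intervals BMS961 had 9 genes up and 3 down between 2 h and 6 h and 95 up and 37 down between 24 h and 48 h, and BMS753 had 19 and 6, then 4 and 10. ATRA had 55 up and 35 down in the first of these intervals and 607 up and 145 down in the last.

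**Figure D1:**
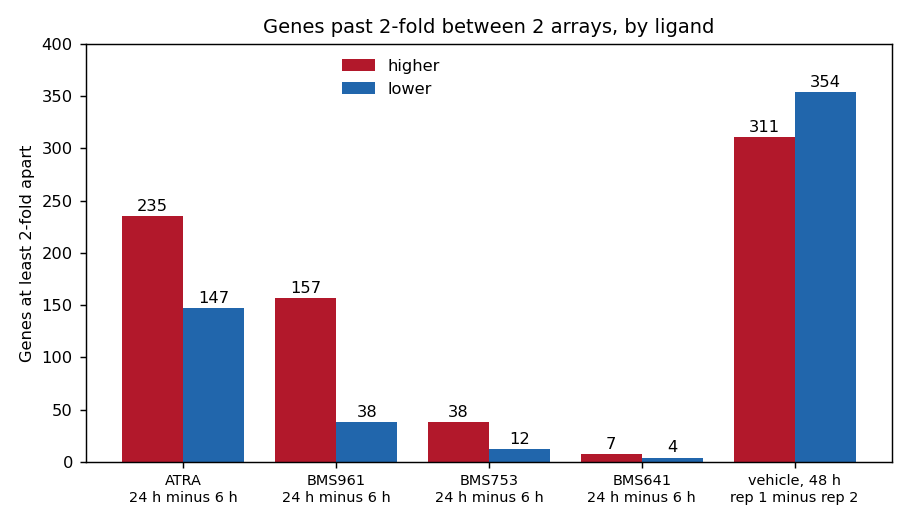
Number of genes at least 2-fold higher (red) or lower (blue) at 24 h than at 6 h for each ligand, and in vehicle replicate 1 than in replicate 2 at 48 h. The bars go down from 235 and 147 genes with ATRA to 7 and 4 with BMS641, and the vehicle pair, at 311 and 354, is above all 4 ligands. The vehicle pair is shown as a description and not as a limit of array noise.

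The ligands shared their upward steps unevenly. Of the 38 upward steps with BMS753, 35 (92.1%) were also upward steps with BMS961, which is 22.3% of the 157 with BMS961, and 10 (26.3%) were upward steps with ATRA, 4.26% of the 235 there. ATRA and BMS961 shared 36, which is 15.3% of those with ATRA and 22.9% of those with BMS961. In all, 197 genes stepped up with ATRA alone and 93 with BMS961 alone, while 24 stepped with BMS961 and BMS753 and neither of the others, and 10 with ATRA, BMS961 and BMS753. Read in the other ligands, the 235 genes of ATRA had median steps of 0.39 in BMS961, 0.18 in BMS753 and 0.15 in BMS641. The 157 genes of BMS961 had median steps of 0.65 in BMS753 and 0.35 in BMS641. Across all 19938 genes the steps of BMS961 and BMS753 had a Pearson r of 0.55, those of BMS961 and BMS641 0.437, those of ATRA and BMS961 0.295, those of BMS753 and BMS641 0.256, those of ATRA and BMS753 0.17, and those of ATRA and BMS641 0.068. These are descriptions across genes of 1 pair per ligand.

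The class comparison asks whether the step with ATRA and BMS961 differed from that with BMS753 and BMS641. In limma 0 genes passed (0% called), the smallest adjusted p was 0.838, and 772 genes (3.87%) had an unadjusted p under 0.05. For ATRA, BMS961 and BMS753 against BMS641 the count was also 0 (0% called), with a smallest adjusted p of 0.891 and 899 genes (4.51%) at an unadjusted p under 0.05. The first of these counts was 237 without BMS961, where ATRA alone stood against BMS753 and BMS641. The groups below are descriptions of size, and no gene in them was shown to differ between ligands in its step with all 4 ligands in the fit.

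ATRA and BMS961 only: 7 genes stepped up with both while BMS753 and BMS641 moved up by less than 0.5 log2 units. They were Srgn, which encodes the granule proteoglycan core protein serglycin, the desmosomal cadherin gene Dsc2, the homeobox genes Hoxb2 and Hoxa5, the engulfment adaptor gene Gulp1, Zadh2, a prostaglandin reductase gene, and Yaf2, a partner of Polycomb proteins. Srgn had 10.14 at 24 h and 7.02 at 6 h with ATRA, 8.65 and 7.01 with BMS961, 7.31 and 6.87 with BMS753, and 6.69 and 6.42 with BMS641. Its 6 h levels lay between 6.42 and 7.02 and its 24 h levels ran in the order of the ligands' counts. The 2 h level with ATRA, 8.19, was above its 6 h level, and vehicle replicates 1 and 2 had 9.52 and 6.92.

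Hoxb2 had 8.46 at 24 h and 6.88 at 6 h with ATRA, 6.93 and 5.15 with BMS961, 5.22 and 5.02 with BMS753, and 5.21 and 5.33 with BMS641. Its level with ATRA was thus already above the others at 6 h, and at 48 h it was 9.41 with ATRA and 6.08 with BMS961. Hoxa5 had 9.73 at 24 h and 8.71 at 6 h with ATRA, 8.42 and 5.92 with BMS961, 5.95 and 5.52 with BMS753, and 5.01 and 5.50 with BMS641. The step of Hoxa5 was larger with BMS961 (2.50) than with ATRA (1.02), where the 6 h array was already high. The vehicle replicates had 5.57 and 5.52 for Hoxa5 and 5.21 and 5.16 for Hoxb2.

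Dsc2 had 7.10 at 24 h and 4.99 at 6 h with ATRA, 6.33 and 4.70 with BMS961, 4.85 and 4.53 with BMS753, and 4.32 and 4.67 with BMS641. Both 24 h levels with ATRA and BMS961 were above every other level of the 8 arrays. The steps of Gulp1 were 1.36, 1.34, 0.49 and 0.36 with ATRA, BMS961, BMS753 and BMS641, those of Zadh2 1.34, 1.41, 0.35 and 0.21, and those of Yaf2 1.15, 1.02, 0.43 and 0.18. Yaf2 thus lay close to both limits of the rule, and Gulp1 close to the lower one.

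Downwards, 2 genes stepped with ATRA and BMS961 only. Spry4, a feedback inhibitor of ERK signalling downstream of FGF receptors, had 7.94 at 24 h and 9.77 at 6 h with ATRA, 8.86 and 10.26 with BMS961, 9.59 and 10.07 with BMS753, and 10.08 and 10.17 with BMS641. Chrna9, a nicotinic acetylcholine receptor subunit gene, had steps of -1.03, -1.25, -0.05 and 0.26 in that order of ligands. The vehicle replicates differed little for Spry4 (9.67 and 9.97) and by -1.39 for Chrna9 (5.90 and 7.29).

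With BMS753 as well, 8 genes stepped up while BMS641 moved up by less than 0.5. They were Tll1, a tolloid-like metalloprotease gene, the neuronal intermediate filament gene Prph, Plin2, which encodes a lipid droplet coat protein, the histone variant gene Macroh2a2, Hpgd, which inactivates prostaglandins, the meiotic recombination gene Tex11, the gluconeogenic enzyme gene Fbp2 and Calcoco2, known as an autophagy receptor in human cells. Tll1 had 8.80 at 24 h and 6.78 at 6 h with ATRA, 6.81 and 5.10 with BMS961, 6.15 and 4.71 with BMS753, and 4.40 and 4.37 with BMS641. Fbp2 had 8.44 and 6.86 with ATRA, 9.44 and 6.73 with BMS961, 7.61 and 6.56 with BMS753, and 6.99 and 6.57 with BMS641. The 6 h levels of Fbp2 lay between 6.56 and 6.86, and BMS961 was highest at 24 h, at the lower dose.

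Calcoco2 had 10.12 at 24 h and 9.09 at 6 h with ATRA, 9.82 and 6.88 with BMS961, 7.80 and 6.10 with BMS753, and 5.69 and 5.29 with BMS641. Its smallest step among the 3 stepping ligands was that of ATRA (1.03), whose 6 h level was the highest of the 4. Plin2 had 8.77 and 7.20 with ATRA, 8.13 and 6.78 with BMS961, 7.58 and 6.40 with BMS753, and 6.68 and 6.23 with BMS641. Its BMS641 step of 0.46 was just under the limit, as were those of Hpgd (0.44), Fbp2 (0.42), Macroh2a2 (0.40) and Calcoco2 (0.40). With each array centred on its median, or after quantile normalization, 4 genes met this rule. The vehicle replicates 1 and 2 had 7.17 and 4.27 for Tll1 and 8.37 and 4.86 for Calcoco2. Over the 15 genes that stepped up in either group, replicate 1 was above replicate 2 in 15, at least 2-fold in 8, with a median of 1.19. The part of this difference between vehicle arrays in the steps was not tested.

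Gja1, which encodes the gap junction protein connexin 43, was the 1 gene that stepped down with ATRA, BMS961 and BMS753 (-1.06, -1.28 and -1.05, against -0.22 with BMS641). It had 7.71 at 24 h and 8.77 at 6 h with ATRA, 8.88 and 10.16 with BMS961, 9.08 and 10.13 with BMS753, and 9.79 and 10.01 with BMS641. With ATRA the later array did not stay low: Gja1 was at 10.19 at 48 h, against 9.10 at 2 h.

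**Figure D2:**
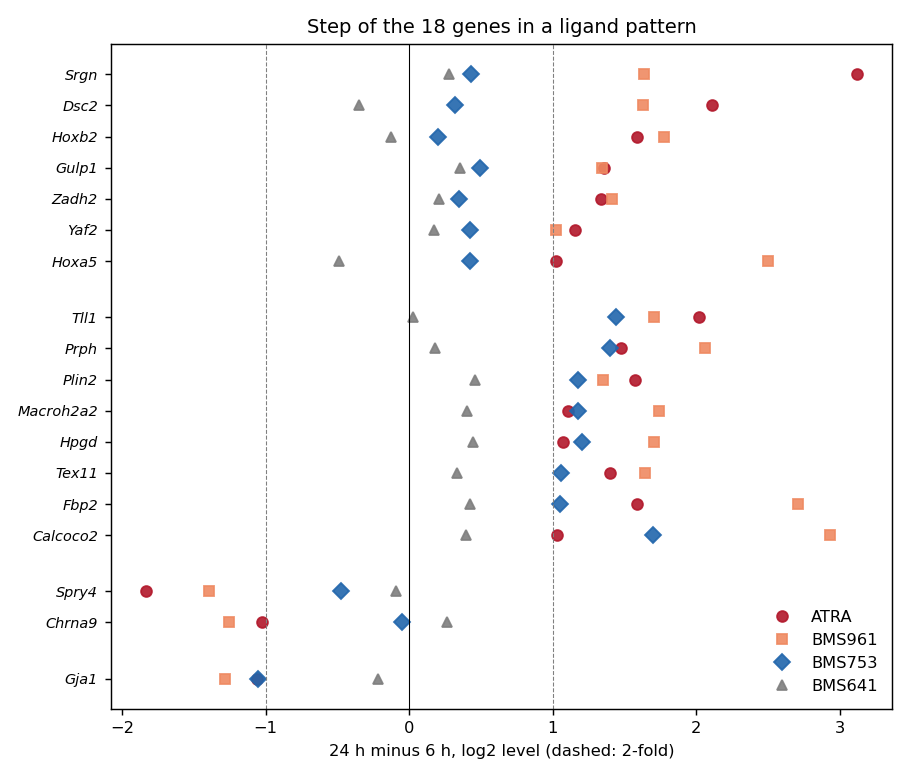
The 24 h minus 6 h difference in log2 level of the 18 genes in a ligand group, 1 point per ligand. Dashed lines mark the 2-fold limit: 7 genes pass it upwards with ATRA and BMS961 only, 8 with BMS753 as well, 2 and 1 downwards, and BMS641 stays inside it throughout.

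All 4 ligands: 0 genes stepped 2-fold in either direction. At a limit of 0.5 log2 units, 23 genes were higher and 2 lower at 24 h in all 4, and at 0.25 the counts were 249 and 38. The genes nearest the 2-fold limit were Anxa5 and Cpe upwards, with smallest steps of 0.90 and 0.78, and Trh and Castor1 downwards, with -0.62 and -0.60. In each of them BMS641 gave the smallest step. Anxa5 had 8.61 at 24 h and 7.20 at 6 h with ATRA, 8.86 and 6.78 with BMS961, 7.75 and 6.69 with BMS753, and 7.27 and 6.37 with BMS641, so that every 24 h level was above every 6 h level.

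Trh had 8.93 at 24 h and 10.01 at 6 h with ATRA, 9.09 and 11.51 with BMS961, 9.99 and 11.96 with BMS753, and 11.31 and 11.93 with BMS641. With ATRA it was at 10.62 at 48 h and 10.28 at 2 h, while with BMS961 it was at 8.26 at 48 h and 11.88 at 2 h. Stra8, the gene of the half-sites printed above, had 10.93 at 24 h and 10.29 at 6 h with ATRA, 10.24 and 8.25 with BMS961, 9.16 and 7.02 with BMS753, and 5.80 and 4.62 with BMS641. It was the 1 gene that stepped up with BMS961, BMS753 and BMS641 and not with ATRA, where its level was at 10.15 by 2 h. The vehicle replicates had 8.44 and 5.17 for Stra8, 7.99 and 6.06 for Anxa5 and 11.17 and 12.05 for Trh.

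**Figure D3:**
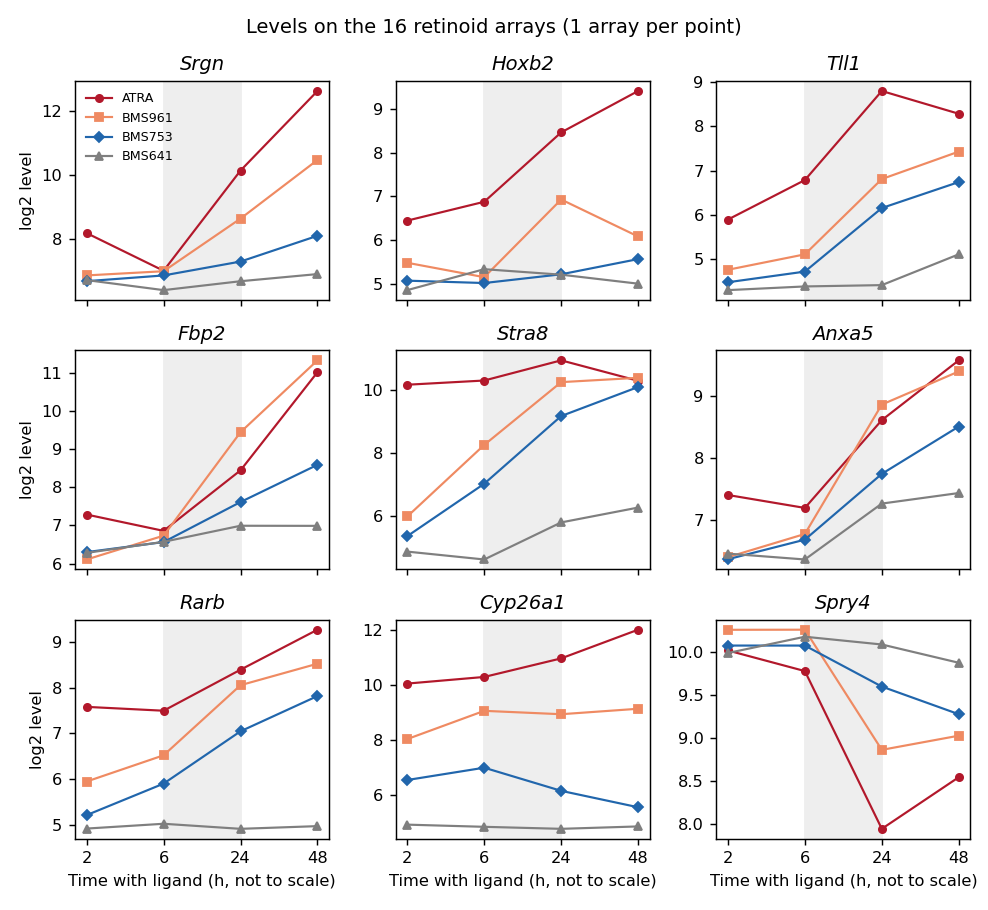
Log2 levels of 9 genes at 2, 6, 24 and 48 h with each ligand, 1 array per point, with the 6 h to 24 h interval shaded and times not drawn to scale. Srgn, Hoxb2 and Spry4 separate ATRA and BMS961 from BMS753 and BMS641 in the shaded interval, Tll1 and Fbp2 move with BMS753 too, and Stra8 with ATRA is already above 10 at 2 h.

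The arrays at 48 h and 2 h were not used to choose these genes. Among the 7 genes that stepped up with ATRA and BMS961 only, 7 were at least 2-fold higher at 48 h than at 2 h with ATRA (5.55% of all genes), 5 with BMS961 (1.96%), 4 with BMS753 (1.09%) and 0 with BMS641 (0.0903%). BMS753 therefore reached a median of 1.03 in these genes over the longer interval, against 2.96 with ATRA and 1.71 with BMS961, and 0.12 with BMS641. Among the 8 that stepped up with BMS753 as well, 7 were at least 2-fold higher with ATRA, 7 with BMS961, 7 with BMS753 and 1, Macroh2a2, with BMS641. The 7 were not the same genes throughout. Calcoco2 fell short with ATRA (0.67), and Tex11 with BMS961 (0.97) and BMS753 (0.86). The median differences of the 8 genes were 1.97, 2.13, 2.04 and 0.59. Spry4 had 48 h minus 2 h differences of -1.47 with ATRA and -1.23 with BMS961, against -0.80 with BMS753 and -0.11 with BMS641.

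The common difference between 48 h and 2 h was tested in the same way, and 0 genes passed in limma (0% called; 2730 genes, 13.7%, at an unadjusted p under 0.05). Without ATRA 97 genes passed, and with all 16 arrays 820. The class difference in these arrays, ATRA and BMS961 minus BMS753 and BMS641, passed for 9 genes (0.0451%; 1409 genes, 7.07%, at an unadjusted p under 0.05), all higher with ATRA and BMS961, and none of the 18 genes above was among them. That count was 0 without BMS753, 0 without BMS641, 854 without BMS961 and 0 after quantile normalization. The smallest adjusted p of the 18 was 0.186, for Dsc2 (3.09 ± 0.40), followed by Srgn (3.21 ± 0.46, adjusted p = 0.249). For Yaf2 the class difference was 0.76 with a 95% interval of 0.08 to 1.44, and for Macroh2a2 it was 0.06 with an interval of -0.95 to 1.07. For Hpgd it was 0.28, with an interval of -0.45 to 1.01.

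**Figure D4:**
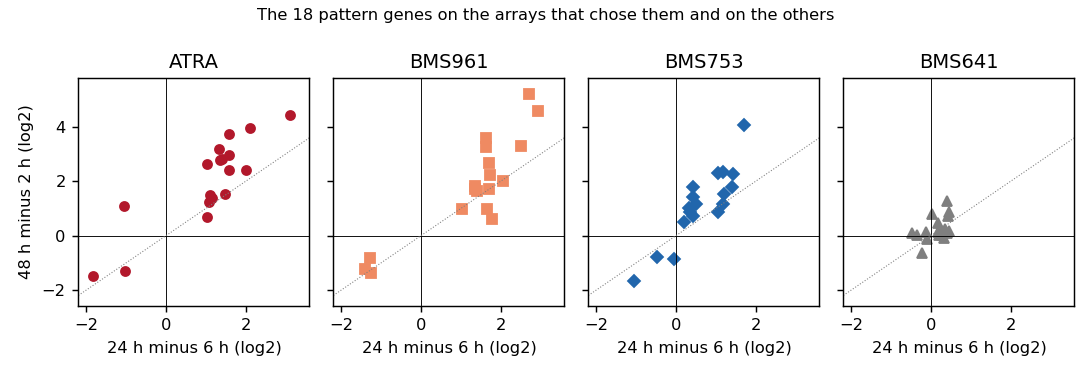
For the 18 genes, the 48 h minus 2 h difference (vertical, log2) against the 24 h minus 6 h step that chose them (horizontal, log2), 1 panel per ligand, with the dotted line at equal values. With ATRA, BMS961 and BMS753 most genes that stepped up lie above the dotted line, Gja1 turns sign with ATRA, and with BMS641 the vertical values run from -0.63 (Gja1) to 1.27 (Macroh2a2).

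The retinoid pathway itself was divided. Of 21 measured genes of retinoid receptors and metabolism, 1 stepped up with ATRA, 4 with BMS961 and 2 with BMS753, while 0 did with BMS641. Of all genes 1.18%, 0.787%, 0.191% and 0.0351% stepped up with these ligands in that order. The medians in this order of ligands were 0.10, -0.06, 0.12 and -0.06, beside -0.00, -0.03, 0.02 and -0.02 for all genes. In the common step 5 of the 21 were higher at an unadjusted p under 0.05, where 9.55% of all genes were, and 0 were lower, where 7.34% of all genes were. This list and those below were chosen with earlier results of these data known, so such shares are descriptions. Rarb, whose DR5 is printed above, had 8.39 at 24 h and 7.50 at 6 h with ATRA, 8.05 and 6.52 with BMS961, 7.05 and 5.90 with BMS753, and 4.92 and 5.03 with BMS641. Cyp26a1 had 10.97 and 10.30 with ATRA, 8.94 and 9.07 with BMS961, 6.16 and 7.00 with BMS753, and 4.78 and 4.86 with BMS641. So of these 2 promoters with a DR5, which differ in letters and strand, Rarb stepped with BMS961 and BMS753. Cyp26a1 was lower at 24 h with BMS753 (-0.84) and hardly differed with BMS961 (-0.12), where the median absolute step of all genes was 0.157. The vehicle replicates had 5.79 and 4.45 for Rarb and 5.05 and 4.85 for Cyp26a1. Over the 11 measured genes with a DR5 in the window the median steps were 0.10, -0.11, -0.11 and -0.06 with ATRA, BMS961, BMS753 and BMS641, and Rarb alone stepped up.

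Crabp2, which encodes a cytoplasmic retinoic acid binding protein, had 7.86 at 24 h and 6.09 at 6 h with ATRA, 8.59 and 6.64 with BMS961, 7.12 and 6.59 with BMS753, and 7.01 and 6.23 with BMS641. It was higher at 24 h in all 4 and at 48 h reached 11.47 with ATRA, against 7.97 with BMS961. Dhrs3, which reduces retinaldehyde, stepped with BMS961 (1.51) and BMS753 (1.04), and with ATRA it had 7.75 at 24 h, 7.65 at 6 h and 9.92 at 48 h. Stra6, which takes up retinol, had steps of 0.44, 1.32, 0.30 and -0.24 with ATRA, BMS961, BMS753 and BMS641, and Rxrg, a retinoid X receptor gene, -1.22, -0.91, 0.20 and 0.41.

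RefSeq windows, from 250 bases before to 50 after the start, were matched for 3 of the 7 genes that stepped up with ATRA and BMS961 only and for 6 of the 8 that did with BMS753 as well. None of these windows held a direct repeat with 1, 2 or 5 bases between half-sites, and AGGTCA was found in Hoxa5 and Plin2. This says only that these letters are not in those windows.

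Hox clusters A and B pattern the body axis and respond to retinoids from their 3′ ends. In these clusters 4 of 19 genes stepped up with ATRA (1.18% of all genes) and 2 with BMS961 (0.787%). They were Hoxa5 and Hoxb2 with both and Hoxa4 (1.03) and Hoxb9 (1.22) with ATRA. The medians were 0.39, 0.18, 0.02 and -0.21 with ATRA, BMS961, BMS753 and BMS641, and in the vehicle pair 0.28. With ATRA 19 of 19 genes were higher at 24 h, and 18 after quantile normalization. Of all genes 49.5% were higher with ATRA as deposited, and 52.8% were lower with BMS641. With BMS641 19 of 19 were lower as deposited, but 16 with arrays centred and 13 after quantile normalization. The BMS641 arrays had gene medians of 5.87 at 24 h and 5.97 at 6 h, the largest gap among the ligands. In clusters C and D 0 of 18 stepped with any ligand, where few or none would at the shares of all genes. Their directions also leaned: 14 were higher with ATRA, 17 lower with BMS961 and 15 lower with BMS641 as deposited. After quantile normalization these counts were 13, 14 and 10. The direction counts were thus not particular to clusters A and B. In the common step 1 gene of A and B was higher and 2 of C and D were lower at an unadjusted p under 0.05. These shares were near those of all genes (9.55% higher and 7.34% lower).

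Genes of meiotic entry were mostly higher at 24 h. Of 11 measured, 8 (against 9.55% of all genes) had an unadjusted p under 0.05 and were higher at 24 h in the common step, and 0 were lower. The list and its members were chosen with earlier results of these data known, so this share is a description and no test. The medians were 0.49, 0.78, 0.36 and 0.22 with ATRA, BMS961, BMS753 and BMS641, and 10, 8, 10 and 10 of the 11 were higher. Sycp3, a protein of the synaptonemal complex, had 6.58 at 24 h and 4.70 at 6 h with ATRA, 5.56 and 4.30 with BMS961, 5.26 and 4.61 with BMS753, and 4.52 and 4.05 with BMS641. Its higher level did not last: at 48 h it was 5.10, 4.01, 4.61 and 4.14. Rec8, the meiotic cohesin subunit, had steps of 0.57, 0.78, 0.40 and 0.04, and Dmc1, the meiotic recombinase, 1.01, 0.58, 0.44 and 0.09. Dazl, a germ cell RNA-binding protein, had 0.28, 0.36, 0.36 and 0.47, and Ddx4, a germ cell RNA helicase, 0.31, 1.12, 0.34 and 0.35. Spo11, which makes the meiotic DNA breaks, lay between 3.30 and 3.54 on the 8 arrays with steps from -0.06 to 0.09. None of these passed after adjustment, and the vehicle pair differed by a median of 0.42 over the same genes.

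Genes of primitive and parietal endoderm differed more over the longer interval than in the step. Of 24, 4 stepped up with ATRA, 3 with BMS961 and 0 with BMS753 or BMS641. Of all genes 1.18%, 0.787%, 0.191% and 0.0351% stepped up with ATRA, BMS961, BMS753 and BMS641. At the last 2 shares a list of this length would be likely to hold none. The median steps were 0.48, 0.21, -0.10 and -0.13, while the 48 h minus 2 h medians were 1.66, 0.93, 0.16 and 0.04. Over the same genes the vehicle pair differed by a median of 0.48, as much as the median step with ATRA. Gata6, a transcription factor that specifies primitive endoderm, had 8.52 at 24 h and 7.83 at 6 h with ATRA, 9.42 and 7.25 with BMS961, 7.41 and 6.60 with BMS753, and 6.21 and 6.16 with BMS641. Sox7 had steps of 1.12, 0.81, 0.58 and 0.27, in the order of ATRA, BMS961, BMS753 and BMS641. Pdgfra, a receptor of primitive endoderm, had 0.66, 1.55, 0.36 and -0.51.

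Dab2 and Cubn, an endocytic adaptor and a receptor of absorptive endoderm, stepped with ATRA only (2.06 and 1.48). Dab2 with ATRA had 7.73, 5.74, 7.80 and 11.27 at 2, 6, 24 and 48 h, and Cubn 6.32, 4.73, 6.21 and 9.07, so that the 24 h levels of both were close to their 2 h levels. The list median with ATRA was 6.73, 6.20, 6.68 and 9.69 at those times. In this list the 6 h array was the lowest of the 4 ATRA arrays, and the part of 1 array in these steps was not tested. In the vehicle pair Dab2 was at 8.20 and 5.51 and Cubn at 6.44 and 4.63. Of 23 genes of the basement membrane, which parietal endoderm secretes, 0 stepped with any ligand, and the medians were 0.29, 0.16, 0.07 and 0.02, beside 48 h minus 2 h medians of 0.74, 0.68, 0.17 and -0.01. At the shares of all genes, a list of this length would be likely to hold few steps or none. Over these genes the vehicle pair differed by a median of 0.41.

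Among 27 pluripotency genes the core factors hardly differed: the steps of Pou5f1 were -0.17, -0.16, 0.06 and -0.06 and those of Nanog 0.11, -0.05, 0.11 and 0.07 with ATRA, BMS961, BMS753 and BMS641. In the common step 3 of the 27 were higher at an unadjusted p under 0.05, near the 9.55% of all genes, and 8 were lower, where 7.34% of all genes were. Dnmt3b, a DNA methyltransferase, had 7.53 at 24 h and 8.41 at 6 h with ATRA, 7.68 and 8.88 with BMS961, 8.11 and 9.20 with BMS753, and 9.01 and 9.27 with BMS641. Its cofactor gene Dnmt3l had 7.41 and 7.35 with ATRA, 7.73 and 9.72 with BMS961, 8.98 and 10.12 with BMS753, and 10.12 and 10.37 with BMS641. Dnmt3l was thus low in ATRA at both times, and Otx2, an epiblast homeobox gene, likewise had 7.06 and 6.60 with ATRA, 6.35 and 7.53 with BMS961, 7.40 and 8.28 with BMS753, and 8.67 and 8.84 with BMS641. The vehicle replicates had 7.88 and 9.43 for Dnmt3b, 9.03 and 10.49 for Dnmt3l, and 9.63 and 9.46 for Otx2. Tbx3 was higher in all 4 (0.83, 1.23, 1.24 and 0.54), but the vehicle replicates were 3.48 apart (10.75 and 7.27). Klf4 had steps of 1.16, 0.77, 0.37 and 0.12 and vehicle levels of 10.46 and 7.20.

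**Figure D5:**
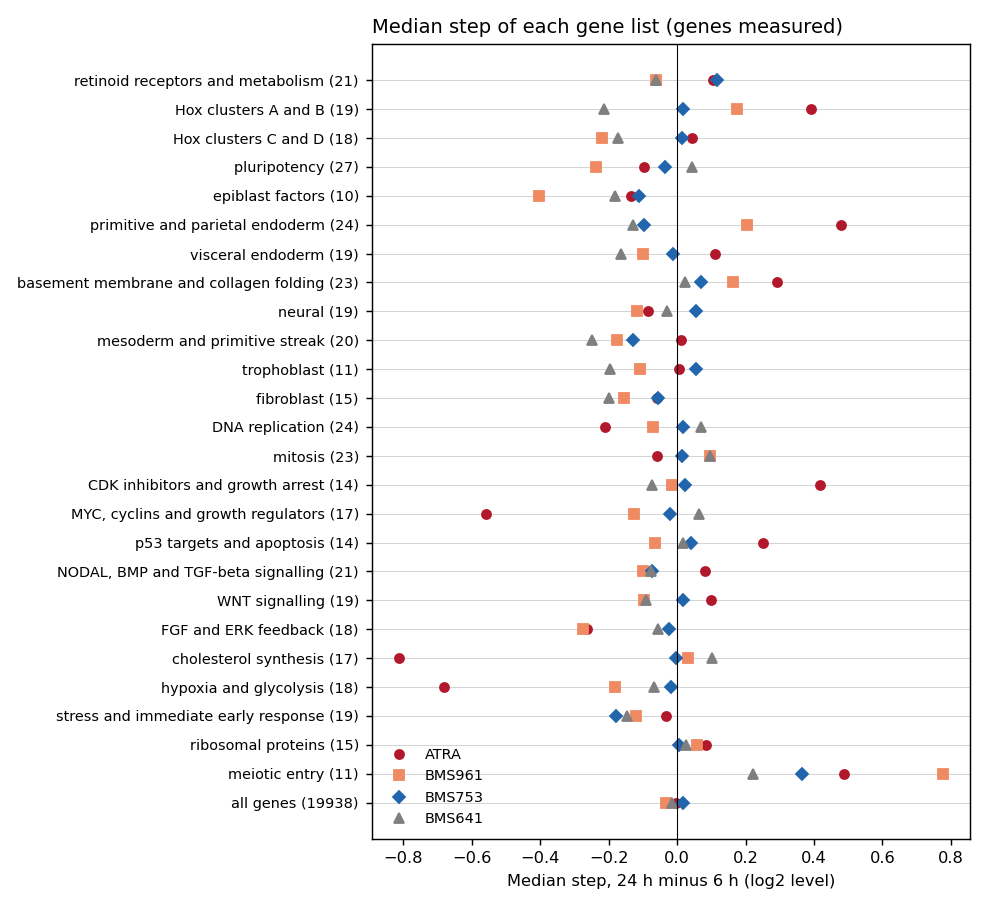
Median 24 h minus 6 h step (log2) of each of 25 gene lists and of all 19938 genes, 1 point per ligand. Cholesterol synthesis, glycolysis and the MYC and cyclin list lie left of 0 with ATRA, meiotic entry lies right of 0 with all 4 ligands, and the points of BMS753 and BMS641 stay close to 0 in most lists.

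Several lists differed between 24 h and 6 h with ATRA and not, or less, with the BMS ligands, by size. No fit set the step of ATRA against those of all the BMS ligands, so this difference was not tested. Of all genes 1.18% stepped up and 0.737% stepped down with ATRA. In cholesterol synthesis 17 of 17 genes were lower at 24 h with ATRA and 6 stepped down, among them Idi1 (-1.75) and Dhcr7 (-1.47), and the medians were -0.81, 0.03, -0.00 and 0.10 with ATRA, BMS961, BMS753 and BMS641. In hypoxia and glycolysis 5 of 18 stepped down with ATRA, among them Ldha, lactate dehydrogenase A (-1.24), and Pdk1 (-1.29), with medians of -0.68, -0.18, -0.02 and -0.07. The vehicle pair differed in the same lists by medians of -1.06 and -0.75. Of 14 p53 targets 4 stepped up with ATRA: Mdm2 (1.16), Ccng1 (1.58), Sesn2 (1.24) and Trp53inp1 (1.61), whose steps with the BMS ligands lay between -0.30 and 0.02. The list of 19 stress and immediate early genes had no such shift, with a median of -0.03 with ATRA and 8 genes higher and 11 lower at 24 h. In it Ddit3 (2.15), Trib3 (1.40), Ddit4 (1.28) and Chac1 (1.18) stepped up with ATRA and Egr1 stepped down.

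Among MYC, cyclins and growth regulators 5 of 17 stepped down with ATRA, where 0.737% of all genes did. Myc had 6.38 at 24 h and 8.57 at 6 h with ATRA, 8.52 and 9.41 with BMS961, 9.23 and 9.54 with BMS753, and 9.66 and 9.31 with BMS641. Mycn stepped down instead with BMS961 (-1.58) and BMS753 (-1.10), against -0.80 with ATRA and -0.24 with BMS641. Ccnd2, a D-type cyclin gene, had 8.01 at 24 h and 9.98 at 6 h with ATRA but was back at 10.18 at 48 h. Cdkn1c, a CDK inhibitor gene, had a step of 1.29 with ATRA and of -0.13, -0.16 and 0.12 with BMS961, BMS753 and BMS641. Vehicle replicate 1 minus replicate 2 was -1.44 for Myc, -1.38 for Mycn, -0.82 for Ccnd2 and -0.46 for Cdkn1c. In DNA replication, mitosis and ribosomal protein genes, 24, 23 and 15 measured, 0 stepped with any ligand. At the shares of all genes, lists of this length would be likely to hold few steps or none.

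In signalling, 4 of 18 FGF and ERK feedback genes stepped down with ATRA and 1, Spry4, with BMS961. Of all genes 0.737% and 0.191% did. Etv4, an ETS factor induced by FGF, had steps of -1.96, -0.30, -0.07 and -0.11 with ATRA, BMS961, BMS753 and BMS641, and the immediate early gene Egr1 -1.94, -0.49, -0.48 and -0.53. Egr1 with ATRA was at 6.10, 7.30, 5.35 and 5.26 at 2, 6, 24 and 48 h, so its 6 h array was the high one. Lefty1, a NODAL inhibitor gene, stepped up with ATRA (1.26) and had -0.63, -0.13 and -0.17 with the others, and Lefty2 and Id3, a BMP target, stepped down with BMS961 (-1.20 and -1.46). In the WNT list the secreted inhibitor gene Notum stepped down with ATRA (-1.94) and had 0.36, 0.56 and 0.24 with BMS961, BMS753 and BMS641. Vehicle replicate 1 minus replicate 2 was 1.85 for Lefty1, 1.52 for Lefty2 and -0.73 for Id3. It was -0.68 for Notum, -0.64 for Etv4 and 0.42 for Egr1.

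In the lists of other cell types the steps are given beside the shares of all genes. Of all genes 1.18% stepped up and 0.737% down with ATRA, and 0.787% and 0.191% with BMS961. Of 19 neural genes 2 stepped up and 1 down with BMS961. In the neural list Gap43 stepped up with BMS961 (1.63) and BMS753 (1.11), and had -0.36 with ATRA and 0.74 with BMS641. Stmn2, a neuronal tubulin-binding protein gene, stepped up with BMS961 (1.09), while Elavl3 stepped down with ATRA (-1.89) and Nefl with BMS961 (-1.36). Vehicle replicate 1 minus replicate 2 was 0.21 for Gap43, 1.24 for Stmn2, -0.42 for Elavl3 and -1.72 for Nefl. In the mesoderm and primitive streak list Twist1 stepped up with ATRA (1.67). In the trophoblast and fibroblast lists, 11 and 15 genes, 0 stepped with any ligand. At the shares of all genes, lists this short would be likely to hold few steps or none. Of 19 visceral endoderm genes Apoe stepped up with ATRA (1.07) and Foxa1 with BMS961 (1.14). RNA from a bulk culture does not tell a change within cells from a change in the share of cells of a type.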

How the data were processed

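Total RNA of F9 cells was labelled with biotin and hybridised to Affymetrix whole-transcript arrays, per the labels' protocols. The deposited values were log2 levels per probe set. Per the submitters' processing notes, the authors ran RMA in Affymetrix Expression Console 1.1. The sources used here do not say which arrays entered 1 normalization. They were used with no further scaling. Of 35556 probe sets, 21789 had 1 gene symbol, 1621 several and 12146 none listed, and 21698 were matched to current symbols by Entrez number. The probe set with the highest mean stood for each of 999 genes with several, which left 19938 genes and no filter on low values; 440 of 470 list members were measured.

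Differences were fitted with limma 3.58.1 (R 4.3.3), with the ligand as a block, and called at a Benjamini-Hochberg adjusted p under 0.05. With all 4 ligands, the common fits left 3 residual degrees of freedom and the class fits 2. The common step without ATRA left 2, and the class fits with a ligand left out had fewer than those with all 4. The code was tested on simulated data. Tables and figures used Python 3.11.15, pandas 2.3.3, numpy 2.4.6 and matplotlib 3.10.9.

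Named genes were all members of the ligand groups, the 2 genes in each direction nearest the limit for all 4 ligands, and list members. The rule also took the 12 largest called rises and falls among genes whose 4 ligands all moved in that direction, and the 6 largest class differences. These gave none. For the calls without ATRA, the largest rises and falls were named whatever their direction with ATRA. Members and the 25 lists were chosen with earlier results of these data known, so no list was tested. Promoter windows came from RefSeq on GRCm38.p6. Other settings tried were centred arrays, quantile normalization, genes above the median level, the mean of probe sets, a trended robust variance, other step limits, all 16 retinoid arrays and leaving out each ligand.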

Additional observations from a re-analysis of the deposited data

Results flagged for a closer look

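In the arrays at 48 h and 2 h, the difference over time with ATRA and BMS961 exceeded that with BMS753 and BMS641 in 9 genes, by a test of the difference itself (limma, adjusted p under 0.05, 0.0451% of genes). The class differences (log2 ± SE) were 3.95 ± 0.33 for the receptor gene Pdgfra, 3.92 ± 0.30 for Dab2, 3.10 ± 0.23 for the hyaluronan synthase gene Has2, 2.94 ± 0.21 for the endoderm factor Gata4 and 2.93 ± 0.22 for the WNT inhibitor gene Dkk1. They were 2.79 ± 0.20 for Cubn, 2.72 ± 0.20 for Stard8, 2.55 ± 0.22 for the transcription factor Runx1 and 2.45 ± 0.22 for the laminin gene Lamb1. The 9 adjusted p-values lay between 0.0301 and 0.0485. Between 6 h and 24 h, Dab2 (2.06), Cubn (1.48) and Has2 (1.34) stepped up with ATRA and Pdgfra (1.55) with BMS961. Gata4 had steps of 0.99, 0.90, 0.07 and -0.43 with ATRA, BMS961, BMS753 and BMS641, and Stard8 0.84, 0.72, 0.15 and -0.04. Dkk1, Runx1 and Lamb1 had steps between -0.23 and 0.43. Vehicle replicate 1 lay above replicate 2 in 9 of the 9 genes, with 8.20 and 5.51 for Dab2, 6.44 and 4.63 for Cubn, 6.24 and 4.92 for Pdgfra and 7.26 and 6.28 for Gata4. The part of this difference in the result was not tested. BMS961 was given at the lower dose. The count of 9 was 0 without BMS753, 0 without BMS641 and 0 after quantile normalization, and 854 without BMS961.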

How the results depend on the processing

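The common step stayed at 0 calls except with arrays centred, which called 1 gene (Lonrf2), and without a ligand, where calls ranged from 0 to 121, the highest without ATRA. Without ATRA the count itself ranged from 20 (quantile normalization) to 675 (centred), with 494 under a trended robust variance. The step class difference had 0 to 237 calls when a ligand was left out, 237 without BMS961; the contrast with BMS641 kept 0 in every setting run, and could not be fitted without BMS641. The common 48 h minus 2 h difference had 820 calls with all 16 arrays and 0 to 97 with a ligand left out (97 without ATRA). Its class difference, 9 calls, had 0 after quantile normalization, 0 among genes above the median level and 60 with 16 arrays, and 0 to 854 with a ligand left out (854 without BMS961, 0 without BMS753, 0 without BMS641). At a 1.5-fold limit, genes stepping up numbered 104 (ATRA and BMS961 only), 39 (BMS753 as well), 12 (all 4), 864 (ATRA), 690 (BMS961), 232 (BMS753) and 174 (BMS641), and genes stepping down 50, 9, 2, 618, 286, 98 and 258. At 3-fold, those stepping up numbered 3 and 0 in the first 2 groups and 33, 34, 2 and 0 by ligand, and those stepping down 0 and 0, then 21, 4, 1 and 1. With the other ligands only under 2-fold, ATRA and BMS961 had 26 genes up and 4 down, and 2 genes stepped down with BMS753 as well. Centring gave 4 genes up with BMS753 as well, 1 down with ATRA and BMS961 only, and 12 up and 2 down with BMS641; quantile normalization gave 4 up with BMS753 as well and 11 up with BMS641. Above the median level 4 genes up with ATRA and BMS961 only were left. Of 32 single genes under 11 other settings, 330 values stayed on their side, 15 newly passed (14 without ATRA) and 0 reversed. The cause of these differences was not tested. Without the ligand as a block, the common step and the common 48 h minus 2 h difference also had 0 calls. The labels give no replicate numbers for the retinoids, so no block by replicate number was fitted.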
